A study of Arabidopsis thaliana with 12 samples.

Results

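The genes described here belong to families with members that loosen the growing plant cell wall: xyloglucan endotransglucosylase/hydrolases (XTH), expansins, and endoglucanases of glycoside hydrolase family 9 (GH9). They were chosen by name, as all genes with a probe set of their own whose symbol begins with XTH, EXPA, EXPB, EXLA, EXLB or GH9. This gave 42 of the 13356 genes tested: 9 XTH genes, 18 expansins (10 of the alpha class EXPA, 4 of the beta class EXPB, 3 EXLA and 1 EXLB) and 15 GH9 genes (2 of class A, 10 of class B and 3 of class C). Each of the 42 had 1 probe set. The rule reads names alone, but earlier results of these arrays were known when it was set.

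The wall of a growing plant cell is a mesh of cellulose fibrils held together by xyloglucan and embedded in pectin, which calcium can cross-link. XTH enzymes cut and rejoin xyloglucan chains, expansins weaken the contacts between fibrils and matrix without cutting any bond and act best in an acid wall, and GH9 enzymes cut unbranched stretches of glucan chains such as those of disordered cellulose. Class B GH9 enzymes are secreted, class A members are anchored in a membrane, and class C members carry an added carbohydrate-binding domain. The expansin-like groups EXLA and EXLB share the fold of expansins, but a wall-loosening activity has not been established for them.

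RNA from whole shoots of 14-day-old seedlings was hybridized to Affymetrix arrays, 12 in all, with 3 biological replicates in each of 4 groups. The groups were the wild type Col-0 and lcs7, a single mutant line of AVP1, each grown on Yamagami agar medium with 1% sucrose at 2 mM or 0.3 mM calcium. AVP1 encodes the proton-pumping pyrophosphatase of the vacuole membrane; its own transcript was not analysed here, so the mutant label was not checked against its target. With 1 mutant line, an effect of the AVP1 lesion cannot be told apart from other differences of that line.

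Signals are linear probe set intensities, group signals are geometric means of 3 arrays, and differences are on the log2 scale, given with their standard error (SE) and the adjusted p of limma, a linear model fitted to all 13356 genes. A member was called at an adjusted p under 0.05. Arrays were on the same scale, with a mean signal (without the extreme 2% at either end) from 495.4 to 496.0, and from 17.1 to 19.3% of the probe sets of an array lay under a signal of 20, taken here as near background. In whole shoots, fewer cells of a type and less RNA per cell cannot be told apart. The level of 1 probe set was not set against that of another, except to pick the brightest gene without a call in each family.

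In several arrays the signals stood apart from their group. At 11 genes far brighter in lcs7 than in Col-0 at 2 mM calcium, replicates 2 and 3 of Col-0 at 0.3 mM reached 25.5% and 37.2% of the lcs7 level (medians), while replicate 1 was at -0.1%. The lcs7 replicate 1 at 2 mM calcium lay toward the low-calcium side: at 59 genes lower at 0.3 mM in Col-0 it had gone 83.2% of the way to the Col-0 level at 0.3 mM, against 4.6% and 28.2% in replicates 2 and 3. At 63 genes higher at 0.3 mM in Col-0 the same arrays stood at 54.8%, 12.2% and 61.2%, so replicate 1 was set apart from both others only at the genes on the lower side. Both gene sets were chosen after the data were seen, and calls of genes named here that were lost without either set of arrays are given with that value.

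Of the 42 genes, 26 had a group signal of at least 20 in all 4 groups and 7 were under 20 in every group. The dim genes were EXPA21, EXPA24, GH9B6, GH9B11, GH9B17, XTH21 and XTH26, whose arrays ranged from 0.8 to 37.5. In all, 10 members were called in at least 1 of the 5 comparisons (2 XTH genes, 3 expansins and 5 GH9 genes), and 32 in none; among all genes, 27.5% were called in at least 1.

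**Figure D1:**
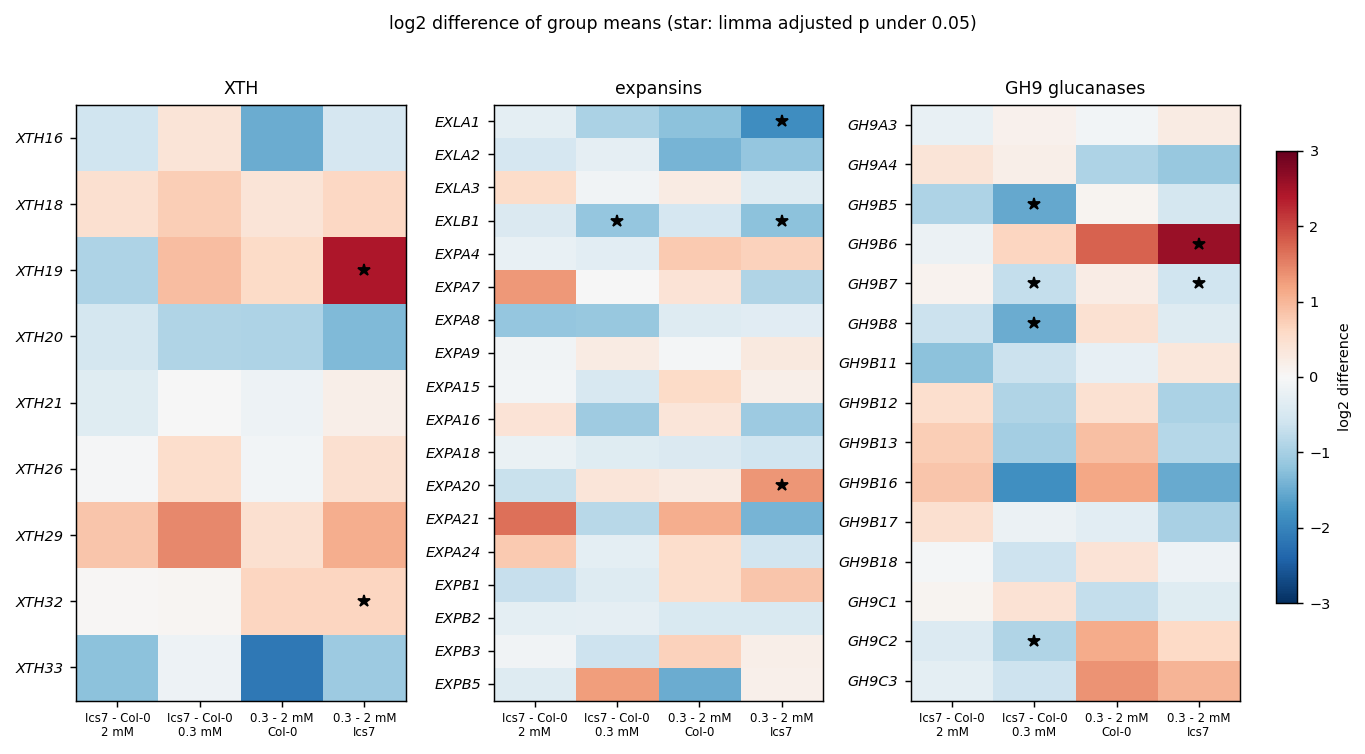
Each cell is the log2 difference of group means of 1 gene, for lcs7 minus Col-0 at 2 and 0.3 mM calcium and for 0.3 minus 2 mM calcium in Col-0 and in lcs7; red is higher, blue is lower, and stars mark an adjusted p under 0.05. All 12 stars stand in the columns that use the lcs7 arrays at 0.3 mM calcium: 5 in the line difference at 0.3 mM and 7 in the calcium difference of lcs7.

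The first question of the design is how lcs7 differs from Col-0 at each calcium level. At 2 mM calcium none of the 42 members passed limma's adjusted test, against 2.75% of all genes (1.64% higher and 1.11% lower), and 7 had an unadjusted p under 0.05 (15.1% of all genes). The arrays of the lines did not overlap at 11 members, against 21.4% of all genes. The median difference was -0.19 over the members and -0.04 over all genes.

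At 0.3 mM calcium 5 of the 42 members fell in lcs7 and none rose, against 16.8% of all genes called, 9.8% lower and 6.99% higher. An unadjusted p under 0.05 was found at 15 members, 12 of them lower, against 30% of all genes. The members that fell were 4 of the 15 GH9 genes (GH9B5, GH9B7, GH9B8 and GH9C2) and 1 of the 18 expansins (EXLB1); no XTH gene passed. Without Col-0 replicate 1 at 0.3 mM, 8 members were called lower and 1 higher, and the share of all genes in that fit is not given here. The median difference was -0.65 over the GH9 genes, -0.35 over the expansins and 0.39 over the XTH genes, beside -0.05 over all genes. Arrays of the lines did not overlap at 14 of the 42 members, which is a share near the 35.7% of all genes. That the GH9 genes lie lower in lcs7 at 0.3 mM was known from an earlier analysis of these arrays when the genes were chosen, so their count is not independent evidence of that direction.

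Among the secreted class B enzymes, GH9B5 gave signals of 93.2, 77.6 and 72.1 in Col-0 and 39.7, 34.1 and 55.8 in lcs7 at 2 mM calcium, and 80.1, 78.7 and 99.0 in Col-0 and 37.8, 24.3 and 27.5 in lcs7 at 0.3 mM. Every lcs7 array lay below every Col-0 array at both calcium levels. At 0.3 mM the group signal fell from 85.5 to 29.3, a difference of -1.54 ± 0.22 (SE, n = 3 arrays a group; limma adjusted p = 0.00203). At 2 mM the difference of -0.93 ± 0.22 did not pass after adjustment (adjusted p = 0.0649). The test of whether the line difference changed with calcium gave -0.61 ± 0.31 (adjusted p = 0.379).

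GH9B8 showed the same order of groups. Its signals were 128.4, 157.7 and 155.6 in Col-0 and 108.4, 94.7 and 79.6 in lcs7 at 2 mM calcium, and 174.1, 187.4 and 250.0 in Col-0 and 66.8, 57.5 and 97 in lcs7 at 0.3 mM. Col-0 arrays were higher than lcs7 arrays without overlap at either level. The fall at 0.3 mM was 2.80-fold, from 201 to 72.0 (-1.48 ± 0.22, limma adjusted p = 0.00229), and the difference at 2 mM was -0.65 ± 0.22 (adjusted p = 0.188).

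GH9B7, also of class B, separated lcs7 at 0.3 mM from the other groups. Its arrays gave 1772, 1829 and 1849 in Col-0 at 2 mM, 1988, 1832 and 2601 in Col-0 at 0.3 mM, 1965, 1989 and 1875 in lcs7 at 2 mM, and 1183, 1492 and 1186 in lcs7 at 0.3 mM. The last 3 arrays were the lowest of the 12. GH9B7 thus fell in lcs7 against Col-0 at 0.3 mM (-0.73 ± 0.14, limma adjusted p = 0.00871) and fell with low calcium within lcs7 (-0.60 ± 0.14, adjusted p = 0.0158). These comparisons share the lcs7 arrays at 0.3 mM. The line difference at 2 mM was 0.10 ± 0.14 (adjusted p = 0.819), and the change of the line difference with calcium was -0.82 ± 0.20 (adjusted p = 0.0723). That change passed with an intensity trend in the variance, an offset of 50, signals under 20 raised to 20, or the dimmest genes left out. It passed in no fit with 1 array left out. The call between the lines did not hold when only those 2 groups entered the fit (adjusted p = 0.0741), and the call within lcs7 was lost without lcs7 replicate 2 at 2 mM or replicate 1 or 3 at 0.3 mM (adjusted p up to 0.0599).

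GH9C2, of the class with a carbohydrate-binding domain, was high in Col-0 at 0.3 mM calcium. Signals were 180.2, 292.1 and 220.7 in Col-0 at 2 mM, 461.9, 475.9 and 529.1 in Col-0 at 0.3 mM, 217.0, 142.0 and 161.3 in lcs7 at 2 mM, and 271.7, 260.4 and 247.4 in lcs7 at 0.3 mM. The 3 Col-0 arrays at 0.3 mM were above all 9 others. At 0.3 mM the gene fell in lcs7 by 1.88-fold, from 488 to 260 (-0.91 ± 0.20, limma adjusted p = 0.0131). Low calcium gave a difference of 1.11 ± 0.20 in Col-0 and of 0.61 ± 0.20 in lcs7, with no overlap of arrays in either line, and neither passed (adjusted p = 0.0503 and 0.0553). Without lcs7 replicate 1 at 2 mM both passed (1.11 and 0.78, limma adjusted p = 0.0442 and 0.0247). That array was the highest of lcs7 at 2 mM, so leaving it out must enlarge the difference in lcs7. GH9C2 is also among the 63 genes higher at 0.3 mM in Col-0 at which that array was read. Both passes are therefore a description and no independent evidence.

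**Figure D2:**
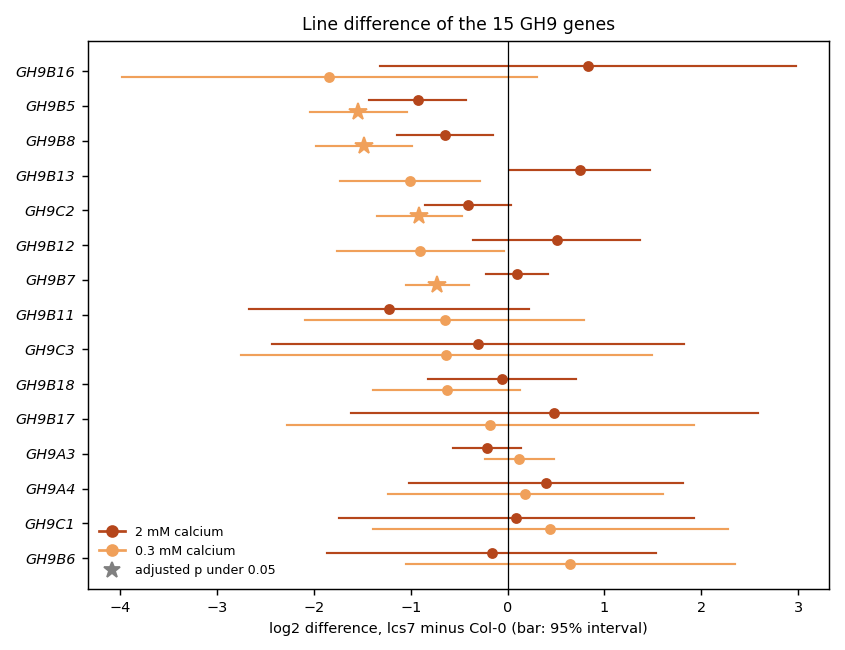
Points are the log2 difference of lcs7 minus Col-0 for the 15 GH9 genes at 2 mM (dark) and 0.3 mM calcium (light), ordered by the value at 0.3 mM, with 95% intervals of the fit as bars and stars for an adjusted p under 0.05. At 0.3 mM 11 of the 15 points lie left of 0 and 4 are stars; at 2 mM 8 lie left of 0 and none is a star.

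GH9B13 is the brightest GH9 gene that was called in no comparison, and its estimates for calcium had opposite signs in the 2 lines. Its signals were 517.2, 626.9 and 277.0 in Col-0 at 2 mM and 818.5, 726.8 and 974.9 in Col-0 at 0.3 mM. In lcs7 they were 848.1, 669.5 and 749.4 at 2 mM and 280.4, 512.0 and 495.2 at 0.3 mM. In each of the 4 comparisons the arrays were apart: Col-0 was higher at 0.3 mM and lcs7 was higher at 2 mM. The differences were 0.90 ± 0.32 for low calcium in Col-0 (limma adjusted p = 0.203) and -0.86 ± 0.32 in lcs7 (0.0898). The test of the difference between them gave -1.76 ± 0.46 (adjusted p = 0.0818), which did not pass here and passed with an intensity trend in the variance, with an offset of 50 and with the dimmest genes left out. Without Col-0 replicates 2 and 3 at 0.3 mM it was -1.73 ± 0.61 (adjusted p = 0.267).

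The calls between the lines at 0.3 mM were lost without the 2 Col-0 arrays that stood apart. Each difference was smaller than with all arrays, and each SE was larger, for GH9B5 0.335 against 0.222. An effect of these arrays cannot be told apart from the loss of precision with 1 Col-0 array at 0.3 mM. With replicates 2 and 3 of that group left out, which leaves 1 Col-0 array that is assumed to vary like the other groups, the differences were -1.45 for GH9B5, -1.27 for GH9B8, -0.64 for GH9B7, -0.83 for GH9C2 and -1.08 for EXLB1. Their limma adjusted p were 0.0521, 0.0588, 0.0662, 0.17 and 0.127, so none of the 5 passed, and 1 other member, GH9C1, was called higher in lcs7. GH9C1, an endoglucanase known from root hairs, had signals of 3.4, 35.5 and 32.3 in Col-0 at 0.3 mM, so its call rests on a single array near background.

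The 10 GH9 genes called in no comparison included both class A members and GH9C1 and GH9C3. GH9A3 held a narrow range, with group signals of 62.1 and 58.4 in Col-0 and 53.5 and 63.5 in lcs7 at 2 and 0.3 mM. GH9A4, GH9C1 and GH9C3 had group signals from 10.1 to 31.9, near background. GH9B12 gave a difference of -0.90 ± 0.38 between the lines at 0.3 mM (limma adjusted p = 0.15) and of -0.96 ± 0.38 with low calcium in lcs7 (0.11), without overlap of arrays in either. It lies beside GH9B11 on chromosome 2 with no protein-coding gene between them, and GH9B11 was under 20 in all groups. GH9B16, GH9B17 and GH9B18 lie next to each other on chromosome 4; GH9B18 had group signals from 45.2 to 69.9, and differences at GH9B16 and GH9B17 had SE of 0.95 and 0.93.

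The second question is how the same genes differ with the calcium supply in each line. In Col-0, low calcium changed none of the 42 members after adjustment by limma, against 0.307% of all genes called (0.195% higher and 0.112% lower), and 12 had an unadjusted p under 0.05 (17.5% of all genes). Of these 12, 7 were higher and 5 lower at 0.3 mM, and arrays did not overlap at 13 members, against 22.3% of all genes. In lcs7, low calcium raised 4 members and lowered 3, against 10% and 11.8% of all genes, 21.8% together. An unadjusted p under 0.05 was found at 17 members, against 33.6% of all genes, and arrays did not overlap at 18 members, against 41.7%. XTH19, XTH32, EXPA20 and GH9B6 rose and EXLA1, EXLB1 and GH9B7 fell. With any 1 of the 3 lcs7 arrays at 0.3 mM left out, 4 members were called, EXLA1, EXLB1 and EXPA20 each time. For those fits the shares of all genes are not given here. The median differences in lcs7 were 0.49 over the XTH genes, -0.42 over the expansins and -0.38 over the GH9 genes, beside -0.05 over all genes.

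**Figure D3:**
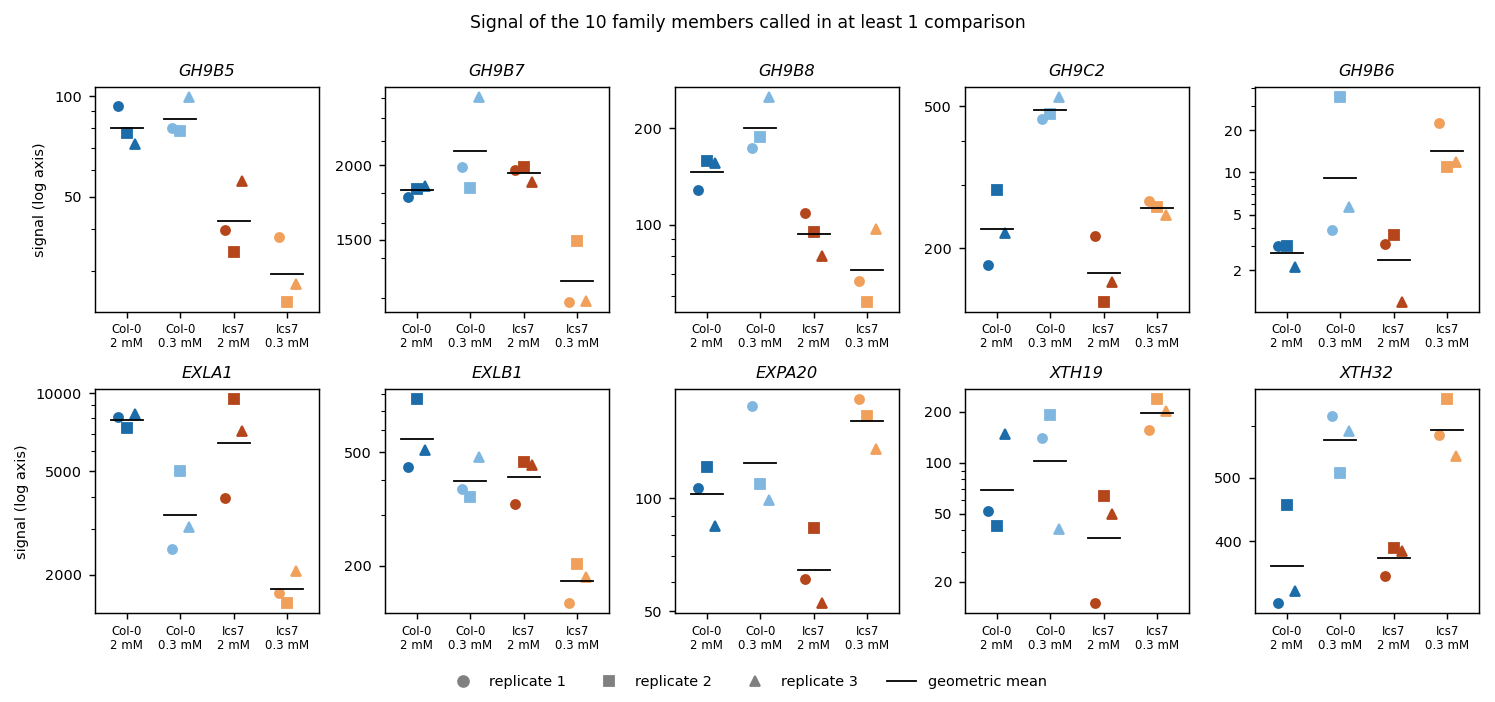
Each panel shows 1 of the 10 called genes, with the signal of every array on a log axis by line and calcium level, markers for replicates 1 to 3 and a black line at the geometric mean of the group. GH9B5 and GH9B8 lie lower in both lcs7 groups, EXLB1 and GH9B7 are lowest in lcs7 at 0.3 mM, GH9C2 is highest in Col-0 at 0.3 mM, and all GH9B6 arrays except 2 are under a signal of 20.

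Among the XTH genes, XTH32 had signals of 321.9, 454.6 and 336.5 in Col-0 and 354.6, 391.2 and 386.5 in lcs7 at 2 mM calcium. At 0.3 mM they were 621.9, 508.9 and 588.6 in Col-0 and 581.9, 658.7 and 539.6 in lcs7. Every array at 0.3 mM was above every array at 2 mM, whichever the line. XTH32 rose 1.57-fold in lcs7 (0.65 ± 0.15, limma adjusted p = 0.0137), and the difference in Col-0 was 0.64 ± 0.15 (adjusted p = 0.085). The lines differed in this response by 0.01 ± 0.21 (adjusted p = 0.99). The call was lost without lcs7 replicate 2 at 0.3 mM (adjusted p = 0.0538).

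XTH19 varied more between arrays, with 51.9, 42.4 and 148.4 in Col-0 at 2 mM, 140.2, 190.6 and 40.7 in Col-0 at 0.3 mM, 14.9, 63.6 and 50.3 in lcs7 at 2 mM, and 155.8, 236.9 and 202.4 in lcs7 at 0.3 mM. In lcs7 the arrays of the 2 calcium levels did not overlap, and in Col-0 they did. XTH19 rose 5.39-fold in lcs7 (2.43 ± 0.73, limma adjusted p = 0.0409), and the difference in Col-0 was 0.58 ± 0.73 (0.744). The test of the change between the lines gave 1.85 ± 1.03 (adjusted p = 0.422). The call passed in 5 of 12 fits without 1 array, with adjusted p up to 0.123, and was lost without any 1 of the lcs7 arrays at 0.3 mM, replicate 1 or 3 of lcs7 at 2 mM, or replicate 1 of either Col-0 group. XTH18, which lies beside XTH19 on chromosome 4 with no protein-coding gene between, had group signals of 172.9 and 224.5 in Col-0 and 240.8 and 372.6 in lcs7 at 2 and 0.3 mM, and passed in no comparison.

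XTH16 is the brightest XTH gene without a call. Its signals were 3554, 3942 and 4586 in Col-0 at 2 mM and 1387, 1348 and 1560 in Col-0 at 0.3 mM, and 1526, 3911 and 3177 in lcs7 at 2 mM and 1549, 2108 and 2004 in lcs7 at 0.3 mM. Within Col-0 the calcium levels did not overlap, while in lcs7 replicate 1 at 2 mM was lower than every lcs7 array at 0.3 mM. Low calcium gave a difference of -1.49 ± 0.30 in Col-0 (limma adjusted p = 0.0647) and of -0.51 ± 0.30 in lcs7 (0.281). XTH33, predicted to be anchored in the membrane and picked after its values were seen, had group signals of 1365 and 310 in Col-0 and 586 and 277 in lcs7 at 2 and 0.3 mM. Its differences with low calcium were -2.14 ± 0.58 (adjusted p = 0.111) and -1.08 ± 0.58 (0.226).

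The other XTH genes passed in no comparison. XTH29 had group signals of 14.2 and 20 in Col-0 and 25.3 and 54.2 in lcs7 at 2 and 0.3 mM, and the lines differed at 0.3 mM by 1.44 ± 0.53 (limma adjusted p = 0.0985). XTH20 had group signals from 12.3 to 43.7, and XTH21 and XTH26 stayed under 5 in all 12 arrays. XTH26 is known from root hairs.

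Among the expansins, EXLA1 and EXLB1 fell with low calcium in lcs7. EXLA1 had signals of 8089, 7355 and 8327 in Col-0 at 2 mM, 2517, 5029 and 3067 in Col-0 at 0.3 mM, 3950, 9491 and 7154 in lcs7 at 2 mM, and 1696, 1554 and 2075 in lcs7 at 0.3 mM. Within each line, all arrays at 0.3 mM were below all arrays at 2 mM. EXLA1 fell 3.66-fold in lcs7 (-1.87 ± 0.33, limma adjusted p = 0.00385), and the difference in Col-0 was -1.22 ± 0.33 (0.112). The responses of the lines differed by -0.65 ± 0.47 (adjusted p = 0.552).

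EXLB1 had signals of 442.6, 769.8 and 508.8 in Col-0 and 328.6, 464.3 and 450.7 in lcs7 at 2 mM, and 372.5, 347.4 and 480.2 in Col-0 and 147.3, 203.0 and 182.0 in lcs7 at 0.3 mM. The lcs7 arrays at 0.3 mM were the lowest 3 of the 12. EXLB1 fell 2.33-fold with low calcium in lcs7 (-1.22 ± 0.24, limma adjusted p = 0.00629) and fell 2.25-fold against Col-0 at 0.3 mM (-1.17 ± 0.24, 0.00996), comparisons that share those arrays. In Col-0 the calcium difference was -0.49 ± 0.24 (adjusted p = 0.33), and the interaction was -0.73 ± 0.34 (0.329).

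EXPA20, an alpha-expansin, rose in lcs7. Its signals were 106.8, 121.5 and 84.2 in Col-0 at 2 mM, 176.9, 109.6 and 99.2 in Col-0 at 0.3 mM, 60.9, 83.2 and 52.5 in lcs7 at 2 mM, and 184.1, 166.3 and 135.5 in lcs7 at 0.3 mM. The lcs7 arrays at 2 mM were the lowest 3 of the 12. EXPA20 rose 2.50-fold with low calcium in lcs7 (1.32 ± 0.26, limma adjusted p = 0.00638), and the difference in Col-0 was 0.27 ± 0.26 (0.654). The test of the change between the lines gave 1.05 ± 0.37 (adjusted p = 0.181).

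EXLA2, known from work on susceptibility to a fungal pathogen, is the brightest expansin without a call. Its signals were 855.7, 696.0 and 859.4 in Col-0 at 2 mM and 252.2, 356.5 and 306.4 in Col-0 at 0.3 mM, and 260.9, 973.6 and 702.3 in lcs7 at 2 mM and 177.9, 251.6 and 357.8 in lcs7 at 0.3 mM. The Col-0 arrays did not overlap, and lcs7 replicate 1 at 2 mM lay among the low-calcium arrays. Differences with low calcium were -1.41 ± 0.44 in Col-0 (limma adjusted p = 0.151) and -1.16 ± 0.44 in lcs7 (0.0943). EXLA3, next to EXLA1 on chromosome 3, had group signals from 49.2 to 71.6 and passed in no comparison.

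**Figure D4:**
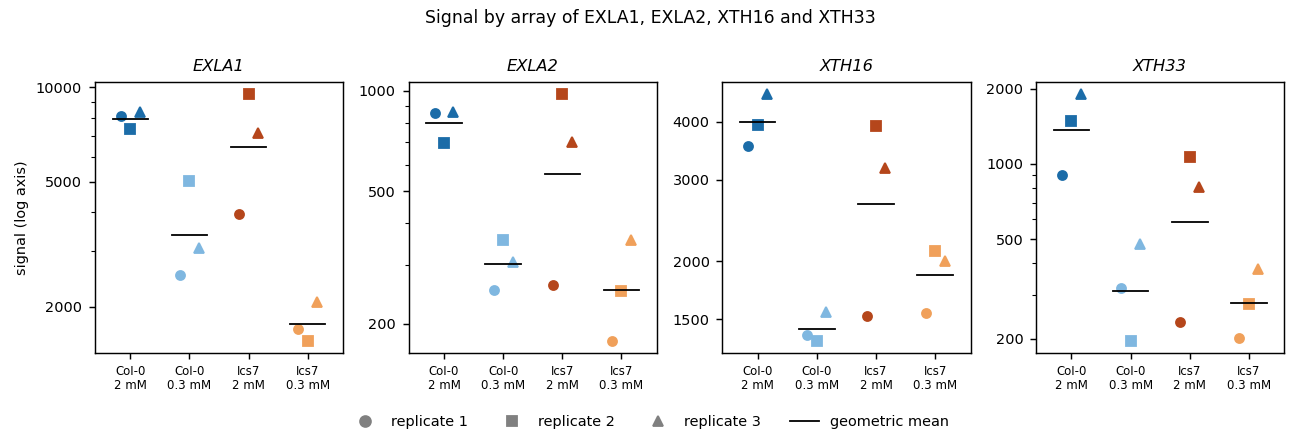
Signal of every array on a log axis for EXLA1, EXLA2, XTH16 and XTH33, by line and calcium level, with markers for replicates 1 to 3 and a black line at the geometric mean. In Col-0 all arrays at 0.3 mM lie below those at 2 mM; in lcs7 at 2 mM, replicate 1 is the lowest of the 3 arrays in each panel.

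EXLA1, EXLA2, XTH16 and XTH33 are set together here after their values were seen. In Col-0 all their arrays at 0.3 mM lay below those at 2 mM, and replicate 1 was their lowest lcs7 array at 2 mM. Replicate 1 was the lowest at other members too, among them XTH18, XTH19 and EXLB1. All 4 belong to the 59 genes lower at 0.3 mM in Col-0, at which this array lay toward the low-calcium side. Leaving replicate 1 out must therefore enlarge the difference of these 4 genes with low calcium in lcs7. The calls below are a description of that choice and no independent evidence. The other lcs7 arrays at 2 mM were 1.81 and 2.40-fold over replicate 1 at EXLA1, 2.69 and 3.73-fold at EXLA2, 2.08 and 2.56-fold at XTH16, and 3.46 and 4.57-fold at XTH33. Over the 36 members that reached a signal of 20 in some lcs7 array at 2 mM, replicate 1 was at least 2-fold under both others at 4, replicate 2 at 1 and replicate 3 at 3. Those 4 were EXLA2, XTH16, XTH33 and XTH19, so EXLA1 was not among them. XTH19 rose with low calcium in lcs7, and without replicate 1 its difference went from 2.43 to 1.79 (limma adjusted p = 0.123). Without replicate 1, limma called a fall with low calcium in lcs7 for EXLA1 (-2.23, adjusted p = 0.00198), EXLA2 (-1.71, 0.00618), XTH16 (-0.91, 0.0103) and XTH33 (-1.75, 0.0297). That fit called 10 members in all, 4 higher and 6 lower, and its share of all genes is not given here. The same fit called XTH16 in Col-0 too (-1.49, adjusted p = 0.0161), but not EXLA2 (0.0587), XTH33 (0.0587) or EXLA1 (0.0699).

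GH9B6 is the last of the called members, and its signals were at background: 3.0, 3.0 and 2.1 in Col-0 at 2 mM, 3.9, 34.3 and 5.7 in Col-0 at 0.3 mM, 3.1, 3.6 and 1.2 in lcs7 at 2 mM, and 22.5, 11 and 11.9 in lcs7 at 0.3 mM. Only 2 of the 12 arrays reached 20. The fitted difference with low calcium in lcs7 was 2.59 ± 0.76 (limma adjusted p = 0.0361), and it was 0.06 with signals under 20 raised to 20. The call passed in 3 of 12 fits without 1 array, those without a Col-0 array at 0.3 mM. Without lcs7 replicate 1 at 2 mM the difference was 2.79 ± 0.88 (limma adjusted p = 0.063).

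EXPA8, EXPB1 and EXPB3 passed in no comparison and are named after their values were seen. EXPA8 had signals of 452.2, 454.3 and 477.2 in Col-0 and 200.9, 242.9 and 177.0 in lcs7 at 2 mM, and 180.4, 492.7 and 495.5 in Col-0 and 185.7, 160.5 and 139.9 in lcs7 at 0.3 mM. Col-0 replicate 1 at 0.3 mM was at the lcs7 level, unlike replicates 2 and 3. The line differences were -1.17 ± 0.35 at 2 mM (limma adjusted p = 0.134) and -1.13 ± 0.35 at 0.3 mM (0.0529). EXPB3 gave -0.63 ± 0.19 between the lines at 0.3 mM (adjusted p = 0.0511), and EXPB1 gave 0.83 ± 0.26 with low calcium in lcs7 (0.0509). EXPA7 and EXPA18, expansins of root hairs, passed in no comparison and had group signals from 15.1 to 37.1 and from 42.1 to 74.0.

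Of the expansins not yet described, EXPA4, EXPA9, EXPA15, EXPA16, EXPB2 and EXPB5 were called in no comparison. EXPA16 had group signals of 86.9 and 112.5 in Col-0 and 114.7 and 53.5 in lcs7 at 2 and 0.3 mM, with differences of -1.07 ± 0.38 between the lines at 0.3 mM (limma adjusted p = 0.0848) and of -1.10 ± 0.38 with low calcium in lcs7 (0.0662). EXPA4 gave 0.79 ± 0.28 with low calcium in Col-0 and 0.70 ± 0.28 in lcs7 (0.202 and 0.114), so the estimates had the same sign. EXPA9 had group signals from 82.4 to 101.5, EXPA15 from 166.6 to 260, EXPB2 from 17.7 to 29.4 and EXPB5 from 14.1 to 39.5.

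None of the 42 members passed limma's test of whether the line difference changed with calcium, against 2.31% of all genes (0.973% with a positive and 1.33% with a negative change), and 9 had an unadjusted p under 0.05 (16.4% of all genes). The median was -0.57 over the GH9 genes, -0.28 over the expansins and 0.57 over the XTH genes, beside -0.02 over all genes. Across the 42 members, the line difference at 2 mM and that at 0.3 mM, which share no array, had a Pearson r of 0.05 and a Spearman rho of 0.10, against 0.26 and 0.25 across all genes. The calcium difference in Col-0 and that in lcs7, which also share no array, had an r of 0.46 and a rho of 0.42 across the members, against 0.30 and 0.33 across all genes. The genes in these correlations share their arrays and are not independent.

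Of other wall genes few could be named on these arrays. A listed gene is counted as measured where a probe set names it alone. Further listed genes may lie among the 8730 probe sets that name no gene. In the list of cellulose synthesis genes 1 of 13 was measured, COBRA (COB), which orients cellulose deposition; it fell in lcs7 at 0.3 mM against Col-0 (3345 to 2127, -0.65 ± 0.14, limma adjusted p = 0.0128) and against lcs7 at 2 mM (-1.24 ± 0.14, 0.000485). Without Col-0 replicates 2 and 3 at 0.3 mM the line difference was -0.77 ± 0.18 and did not pass (adjusted p = 0.0582). In the list of pectin-modifying enzymes 1 of 14 was measured, the pectin methylesterase gene PME41, which rose with low calcium in lcs7 from 320 to 1772 (2.47 ± 0.29, adjusted p = 0.000564). In the list for xyloglucan synthesis and trimming 1 of 9 was measured, CSLC4, and passed in no comparison. Its line difference at 0.3 mM was 0.80, higher in lcs7. The same probe set is counted among the CSLC genes below. None of 3 touch genes was named by a probe set of its own.

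Of 5 CSLC genes, which belong to the family of xyloglucan backbone synthases, 2 fell in lcs7 at 0.3 mM against Col-0 and none rose, where 9.8% of all genes were called lower and 6.99% higher: ATCSLC08 by 0.79 ± 0.13 (limma adjusted p = 0.00425) and CSLC5 by 0.57 ± 0.13 (0.0152). Both fell with low calcium in lcs7 too, by 0.43 ± 0.13 (0.0454) and 0.51 ± 0.13 (0.0197), where 11.8% of all genes were called lower and 10% higher. Without Col-0 replicates 2 and 3 at 0.3 mM the line differences were -0.65 and -0.47, and neither was called. In that fit, which leaves 1 Col-0 array, calls in this list went to higher signal in lcs7. The same held for the CSLA and CSLD genes. Without lcs7 replicate 1 at 2 mM the calcium difference of ATCSLC08 did not pass (limma adjusted p = 0.102). Of 3 CSLA and CSLD genes, CSLA03 fell with low calcium in lcs7 (-0.73 ± 0.23, limma adjusted p = 0.0465), beside 11.8% of all genes called lower. It was not called without the 2 Col-0 arrays. Of 22 TBL genes, relatives of wall polysaccharide acetyltransferases, 4 fell and none rose in lcs7 at 0.3 mM against Col-0, with TBL34 at -1.32 ± 0.16 (adjusted p = 0.00103), beside the same 9.8% and 6.99% of all genes. Without the 2 Col-0 arrays 3 of these 4 passed, TBL34 at an adjusted p of 0.0273, TBL45 did not (0.128), and 1 other TBL gene was called higher. With low calcium in lcs7, 2 TBL genes rose and 4 fell, beside 10% and 11.8% of all genes. TBL36 alone passed at 2 mM, higher in lcs7 (0.78 ± 0.17, adjusted p = 0.0453), and alone passed the test of change with calcium (-1.19 ± 0.24, 0.0407). Neither call of TBL36 passed without the 2 Col-0 arrays (0.0862 and 0.193) or without lcs7 replicate 1 at 2 mM (0.134 and 0.0847).

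Markers of root, green shoot and guard cells were read as well. Of 9 root markers 1 was measured, PYK10, and it rose in lcs7 against Col-0 at 2 mM (984 to 2670) and at 0.3 mM (1529 to 5778), by 1.44 ± 0.17 and 1.92 ± 0.17 (limma adjusted p = 0.00491 and 0.000314). PYK10 was also called higher with low calcium in lcs7, by 1.11. Of 7 shoot markers 1 was measured, the rubisco activase gene RCA, which fell in lcs7 at 0.3 mM against Col-0 (-0.41 ± 0.09, adjusted p = 0.0121) and with low calcium in lcs7 (-0.47 ± 0.09, 0.00484). Of 3 guard cell markers 1 was measured, FAMA, which fell with low calcium in lcs7 (-0.75 ± 0.20, adjusted p = 0.0248). Without Col-0 replicates 2 and 3 at 0.3 mM, PYK10 still passed in both line comparisons (adjusted p = 0.0111 and 0.0093) and the line difference of RCA did not (0.0788). Without lcs7 replicate 1 at 2 mM, FAMA did not pass (0.0804). RCA gave group signals of at least 17378, so the label of green shoot tissue had its marker present. The part of these markers in the results on the wall genes was not tested.

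Several genes of the 3 families could not be described as members. Probe sets shared by EXP26 with EXPA22, EXPA23 with EXPA25, GH9B9 with GH9B10 and GH9B14 with GH9B15 had array signals from 0.9 to 36.6 and passed in no comparison. EXGT-A3, an XTH gene listed under another symbol, had group signals of 7745 and 4421 in Col-0 and 6083 and 4276 in lcs7 at 2 and 0.3 mM, with no call, and the same held for an expansin-like gene listed by locus alone, at group signals under 5. By locus, 10 of 33 XTH genes, 16 of 28 expansins and 10 of 13 GH9 genes of hand-written lists were named by a probe set of their own. Others may lie among the 8730 probe sets that name no gene, so the family counts and medians cover named genes only.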

How the data were processed

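Biotin-labelled RNA was measured on 12 arrays, 3 a group. The deposited values are linear probe set intensities, 22746 per array, lowest value 0.1. Per the submitters' processing notes, the authors used RMA (no version) and oligo 1.32.0, but the deposited values are neither log2 nor on shared quantiles, so their summarisation is not known. Arrays have no read depth; 3 arrays a group limit the precision.

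Of the probe sets 13513 name 1 gene, 503 several and 8730 none; only the first kind was tested, the brightest per gene. Log2 signals of all 12 arrays went into 1 model with a mean for each group (R 4.3.3, limma 3.58.1, eBayes). Tests were 2-sided, and p-values were adjusted after Benjamini and Hochberg over the 13356 genes. The members and gene lists were chosen with earlier results of these data known. Full values were given, by rule, for members called in any comparison and for the brightest uncalled member of each family, others by count or range.

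Alternatives were other moderation, array weights, quantile normalization, median centring, filters on dim genes, an offset, a floor, other probe set choices, a fold limit, only the compared groups, the replicate number as a block, and single or doubtful arrays left out; for genes of other lists the last was added after the data were seen. Replicate numbers did not pair the arrays: 0 of 18 same-number pairs had a correlation of deviations over 0.1 (-0.0373 to 0.0502).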

Additional observations from a re-analysis of the deposited data

How the results depend on the processing

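Of the 320 values of the 12 calls of single members under the alternatives, 285 passed and 0 reversed direction. The direction is little test of stability. Many alternatives change only the spread or the genes tested and leave the difference as it was. The same holds when an array outside the comparison is left out. When single arrays were left out in turn, 8 of the 12 calls always passed; GH9B6 passed in 3, XTH19 in 5, GH9B7 with low calcium in lcs7 in 9 and XTH32 in 11. Over these fits, the members called numbered from 0 to 1 for the lines at 2 mM calcium, from 5 to 9 at 0.3 mM, from 0 to 2 for calcium in Col-0, from 4 to 10 in lcs7 and from 0 to 1 for the interaction. The count of 9 came without Col-0 replicate 1 at 0.3 mM, which also gave the single calls at 2 mM (EXPA8) and for the interaction (EXPA21). The counts of 2 and 10 came without lcs7 replicate 1 at 2 mM, and the count of 4 without each lcs7 array at 0.3 mM. In place of 0, 5, 0, 7 and 0 in that order, an intensity trend gave 1, 10, 7, 12 and 2, and either filter on dim genes gave 1, 9, 6, 11 and 2. An offset of 50 gave 1 at 2 mM, 10 at 0.3 mM, 5 in Col-0 and 2 for the interaction. Array weights gave 9 at 0.3 mM and 12 for calcium in lcs7, quantile normalization gave 9 at 0.3 mM and 1 in Col-0, and median centring gave 8 at 0.3 mM. Raising signals under 20 to 20 gave 2 in Col-0 and 1 for the interaction, testing all probe sets gave 2 in Col-0, and a fold of at least 2 left 3 at 0.3 mM. With replicates 2 and 3 of Col-0 at 0.3 mM left out, 1 member was called at each calcium level. The shares of all genes called in these fits are not given here. The counts therefore do not tell whether members shifted more than other genes. The causes of these shifts were not tested.

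With the replicate number as a block, the numbers called were again 0, 5, 0, 7 and 0; XTH19 was no longer called (adjusted p = 0.0656) and EXPB1 was. Median centring moved the median of all genes with low calcium in lcs7 from -0.05 to -0.17, the share of calls that were higher from 46 to 32.2%, and the members called there to 3 higher and 5 lower. For the interaction the share went from 42.2 to 30.4%. Family medians kept their sign under both scalings. Differences at signals near background, as at the 7 dim members, are poorly measured.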
